A study of Homo sapiens with 4 samples.

Results

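The enzymes that make and recycle nucleotides, together with the folate enzymes that hand them one-carbon units, were compared between a pair of colorectal cancer sublines that differ in β-catenin. The 37 genes form a list, arranged by pathway, of enzymes of purine, pyrimidine, deoxynucleotide and folate metabolism. It was chosen with earlier results of these data known. Of the 37, 36 had a probe on the array (*ADSS*, now *ADSS2*, had none in the annotation used here), and 33 were measured, out of 11875 genes measured in all. A gene counted as measured when the detection p-value of 1 of its probes was under 0.05 on 2 or more of the 4 arrays. *DHODH*, *UMPS* and *DTYMK* had probes but did not pass this filter. The 33 measured genes were detected on both arrays of both lines.

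HCT116-MT keeps the mutant copy of *CTNNB1*, which encodes β-catenin, as its sole allele, and HCT116-WT keeps the wild-type copy. Both are sublines of HCT116, a human colorectal cancer line with 1 allele of each kind, in which the other allele had been disrupted, and both were grown without treatment in RPMI medium with fetal bovine serum. Labeled cRNA from 2 HCT116-MT and 2 HCT116-WT samples was hybridized to HumanHT-12 v4 BeadChips, 1 array per sample. Each genotype is a single subline and no source used here states whether its 2 samples were grown as separate cultures, so that genotype and subline cannot be told apart. The p-values then measure only how far these samples spread, which may be technical.

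Purine rings are built on phosphoribosyl pyrophosphate (PRPP) in a chain of steps from PRPP to IMP, whereas pyrimidine rings are closed first and then joined to PRPP. Folate cofactors, charged with carbon mainly from serine and glycine, supply formyl groups for purines and the methyl group of thymidylate. Salvage enzymes return free bases and nucleosides to the nucleotide pools, and proliferating cells of the intestinal crypt and of colorectal tumors draw on both routes for DNA and RNA synthesis.

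The share of probes detected was similar in both lines, whereas the HCT116-MT arrays correlated more closely than the HCT116-WT arrays. Probes were detected at shares of 41.4% and 42.3% on the HCT116-MT arrays and 41.8% and 42.5% on the HCT116-WT arrays. The correlation of log2 values over genes was 0.977 between the HCT116-MT arrays and 0.959 between the HCT116-WT arrays. Between arrays of different lines it was 0.957 to 0.963. The HCT116-WT arrays thus correlated with each other no more closely than with the HCT116-MT arrays. The epithelial markers *EPCAM*, *KRT8*, *KRT19* and *CDX2* were detected, whereas *KRT18*, *VIL1*, *CEACAM5*, *CDH17* and *LGALS4* did not pass the filter. *EPCAM* was called lower in HCT116-MT (log2 fold change -0.92, SE 0.30, limma adjusted p = 0.445), but not without replicate 1 of HCT116-MT (-0.67) or of HCT116-WT (-0.61). The leukocyte genes *PTPRC* and *CD3E* and the endothelial genes *PECAM1* and *CDH5* did not pass the filter. Measured were 2 of 4 leukocyte, 3 of 4 fibroblast and 1 of 3 endothelial markers. Among them *CD68*, a lysosomal protein of macrophages that other cells also express, had normalized intensities of 793 and 1093 in HCT116-MT against 2314 and 3479 in HCT116-WT (log2 fold change -1.61, SE 0.28, limma adjusted p = 0.231) and was called lower, while *CD14*, *COL1A1*, *DCN*, *PDGFRB* and *VWF* had log2 fold changes between -0.32 and 0.08 and were not called. The part of these markers in the results was not tested.

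The measured nucleotide and one-carbon genes lay higher in HCT116-MT as a list, by a small margin. The list was chosen with earlier results of these data known, so the shares beside it describe it and do not test it. The mean was higher in HCT116-MT for 27 of the 33, against 50.0% of all genes tested. The median log2 fold change was 0.19, against 0 over all genes, with a range of -0.32 to 0.73. The count of 27 was 26 with median scaling, 24 with cyclic loess and 21 with no normalization. In these settings the median over all genes was -0.05, -0.04 and -0.12. With the thresholds of the study (fold change over 1.5 and unadjusted p under 0.05) 3 of the 33 were higher in HCT116-MT (*PPAT*, *HPRT1* and *DCK*), where 3.46% of all genes were called higher. None was lower, where 3.85% of all genes were called lower. At adjusted p under 0.05 limma called 0 of the 33 and 8 of the 11875 genes (0.0674%), and 5 of the 33 had an unadjusted p under 0.05, against 9.28% of all genes. With a mean-variance trend in the limma fit the count at adjusted p under 0.05 was also 0 of the 33. By the brightest kept probe of each gene, both HCT116-MT arrays exceeded both HCT116-WT arrays in 16 of the 33, against 20.7% of all genes. In 1 (*RRM2B*) both were below, against 19.1%, but not on its other kept probe.

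**Figure D1:**
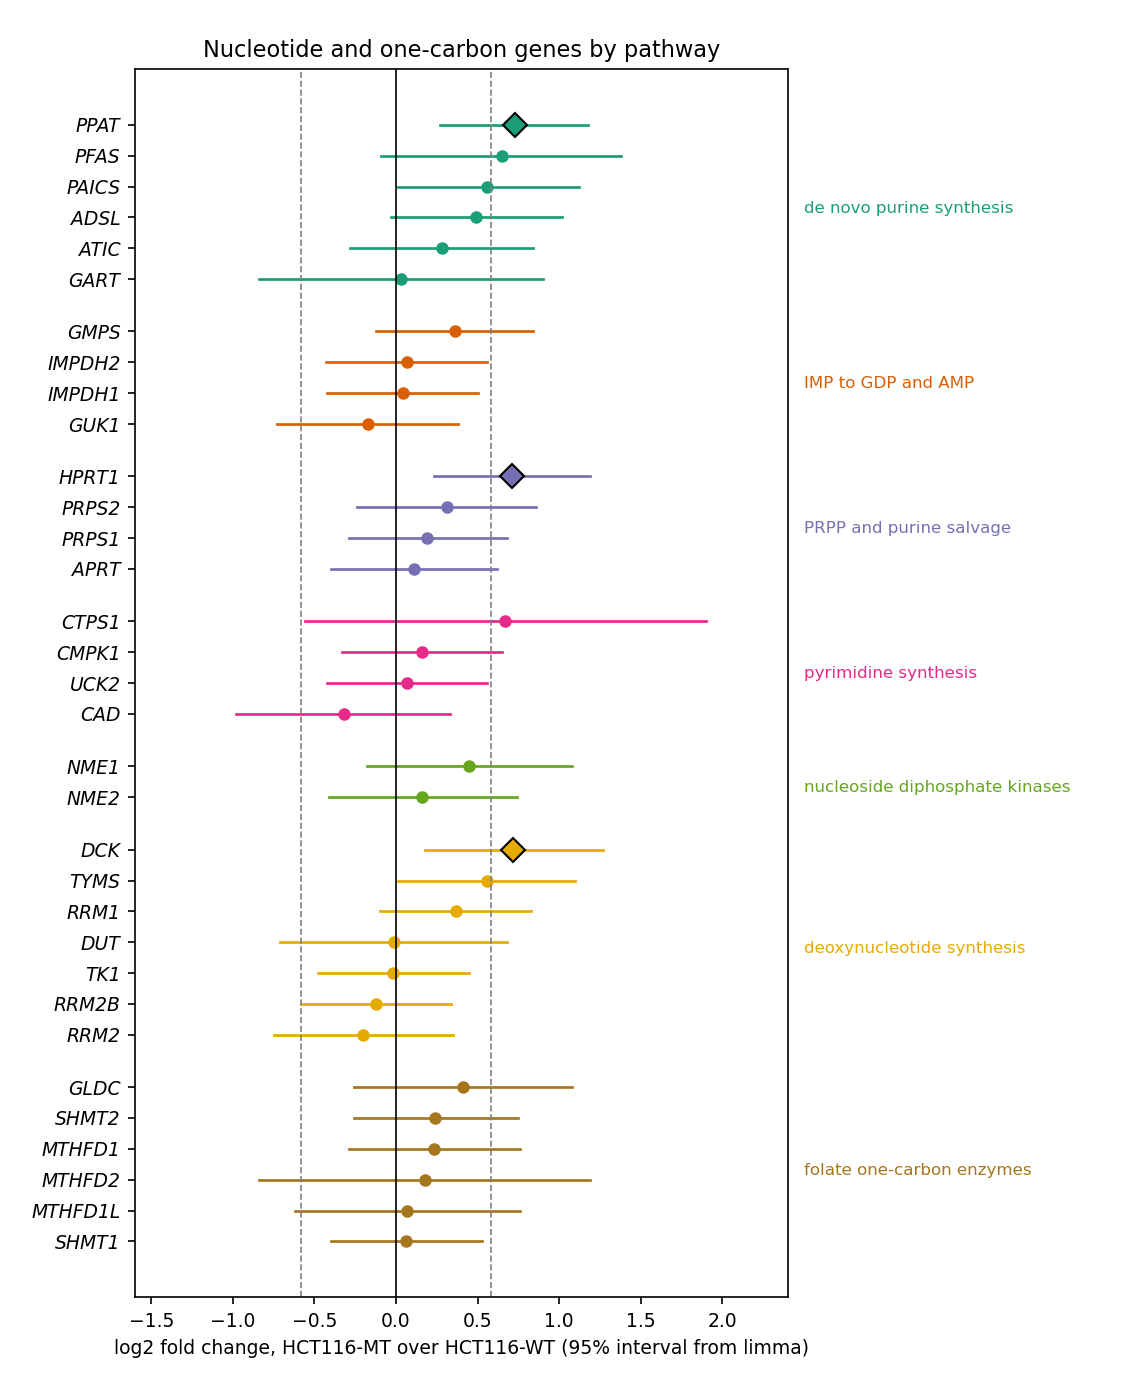
Log2 fold change of the 33 measured genes, HCT116-MT over HCT116-WT, grouped by pathway on the vertical axis, with the 95% interval from limma as lines. Large outlined diamonds are the 3 genes past the study thresholds, circles the others, and dashed lines mark a fold change of 1.5 in either direction. The de novo purine genes lie right of 0, from 0.03 for *GART*, which was below 0 with cyclic loess, with no normalization and without replicate 1 of HCT116-MT or replicate 2 of HCT116-WT, to 0.73 for *PPAT*.

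The purine chain had the largest median of the 7 pathway groups, except when replicate 2 of HCT116-WT was left out. Its 6 genes, *PPAT*, *GART*, *PFAS*, *PAICS*, *ADSL* and *ATIC*, had a higher mean in HCT116-MT, except *GART* with cyclic loess, with no normalization and without replicate 1 of HCT116-MT (-0.11) or replicate 2 of HCT116-WT (-0.48). The median log2 fold change was 0.53, against 0.71 without replicate 1 of HCT116-WT and 0.29 without its replicate 2, where the PRPP and purine salvage genes had 0.42. At the study thresholds 1 of the 6 was called higher, where 3.46% of all genes were. In 5 of the 6, *GART* being the other, both HCT116-MT arrays exceeded both HCT116-WT arrays, as they did in 20.7% of all genes.

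*PPAT* encodes the amidotransferase that commits PRPP to the purine chain. Its normalized intensity was 3653 and 3819 on the HCT116-MT arrays and 2290 and 2222 on the HCT116-WT arrays. The values lay close together within each line and did not overlap between lines. The log2 fold change was 0.73 (SE 0.19, 95% interval 0.27 to 1.18, n = 2 each), or 1.66-fold, with a limma unadjusted p of 0.00786 and adjusted p of 0.386. *PPAT* had 1 probe, whose intensity differs between the non-normalized table used here and the series table of the authors, as does that of the *PAICS* probes, whereas the probes of *HPRT1* and *DCK* read alike in both.

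*PAICS*, a neighbour of *PPAT* on chromosome 4, encodes the enzyme that carboxylates the growing ring and joins aspartate to it. It measured 15771 and 17934 in HCT116-MT against 13124 and 9869 in HCT116-WT, without overlap. Its log2 fold change of 0.56 (SE 0.23, limma adjusted p = 0.532), or 1.48-fold, was just short of the fold threshold. A further kept probe of *PAICS* also gave a log2 fold change of 0.56, at 15324 and 16929 in HCT116-MT against 11990 and 9970 in HCT116-WT.

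*PFAS* adds nitrogen from glutamine in the middle of the chain. It had 1431 and 1846 in HCT116-MT against 1341 and 804 in HCT116-WT. Replicate 1 of HCT116-MT exceeded replicate 1 of HCT116-WT only narrowly, and replicate 2 of HCT116-WT was the low array. The log2 fold change was 0.65 (SE 0.30, 95% interval -0.09 to 1.38, limma adjusted p = 0.579).

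*ADSL*, which releases fumarate in both the IMP chain and the AMP branch, and *ATIC*, which closes the purine ring with formyl folate, had log2 fold changes of 0.49 (SE 0.22) and 0.28 (SE 0.23). *GART*, a trifunctional enzyme that takes up the other formyl group, measured 4980 and 4101 in HCT116-MT against 6303 and 3108 in HCT116-WT. Both HCT116-MT values lay between the HCT116-WT values, and the log2 fold change was 0.03 (SE 0.36). A pair of dimmer kept *GART* probes gave log2 fold changes of 0.25 and 0.38.

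**Figure D2:**
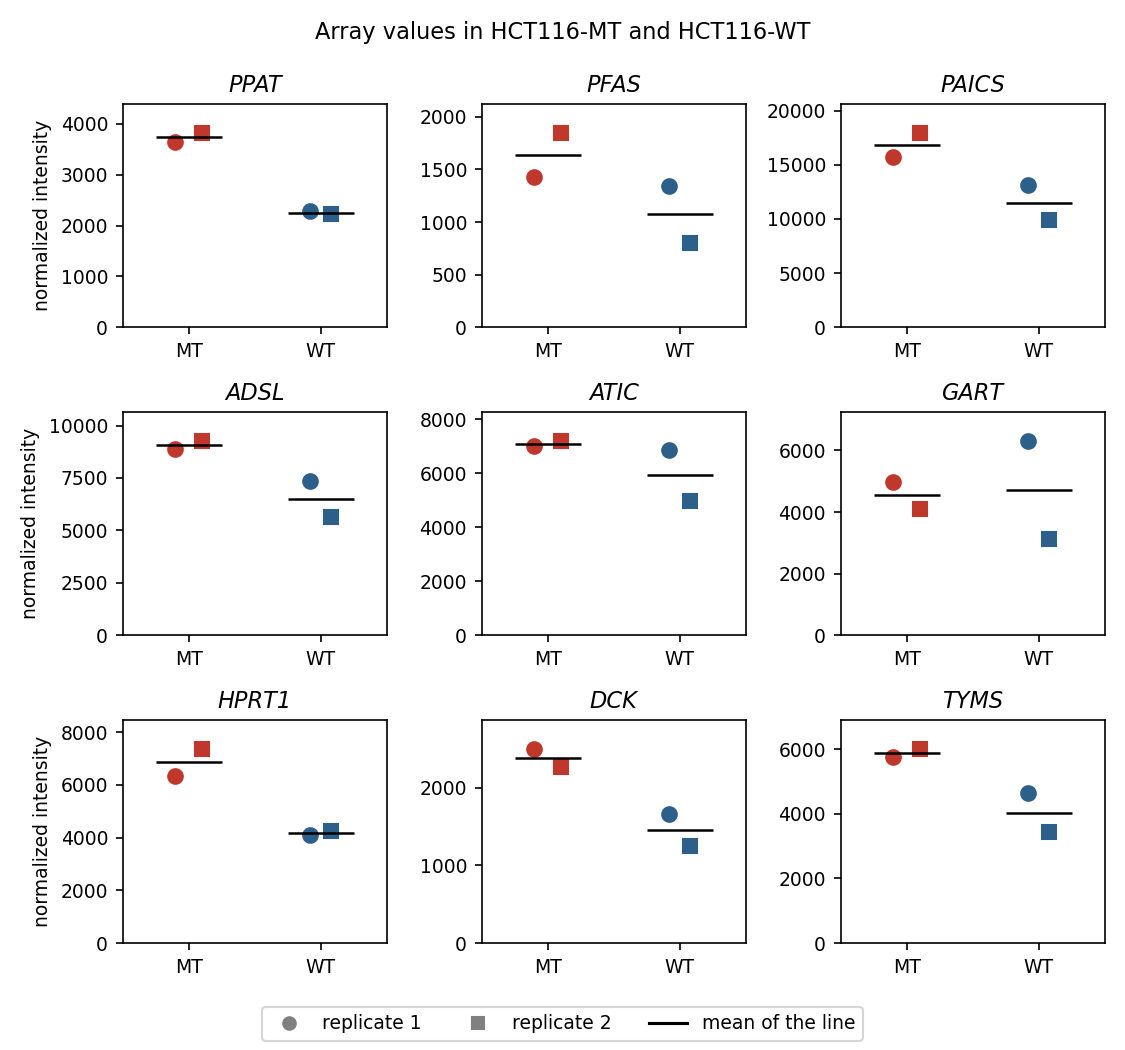
Quantile-normalized intensity (linear axis from 0) of 9 genes on each array, HCT116-MT on the left and HCT116-WT on the right, with replicate 1 as a circle, replicate 2 as a square and a bar at the mean of the line. *PPAT*, *HPRT1* and *DCK* separate the lines by more than their arrays differ, whereas for *GART* the HCT116-MT values of 4980 and 4101 lie between the HCT116-WT values of 6303 and 3108.

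The start of *PPAT* faces that of *PAICS* on the opposite strand, and the promoter windows of the 3 called genes are shown because they let their sequence be set beside this difference. The windows, from RefSeq on build GRCh38.p14, hold 250 bases before and 50 bases from the annotated start. They lie at chr4:56435566-56435865 (minus strand) for *PPAT*, at chr4:70993399-70993698 (plus strand) for *DCK* and at chrX:134459915-134460214 (plus strand) for *HPRT1*. Capitals mark the E-box CACGTG, which reads the same on both strands and is bound by MYC-MAX dimers among others, and, in *DCK*, the E2F motif TTTGGCGC, read on the other strand.
PPAT: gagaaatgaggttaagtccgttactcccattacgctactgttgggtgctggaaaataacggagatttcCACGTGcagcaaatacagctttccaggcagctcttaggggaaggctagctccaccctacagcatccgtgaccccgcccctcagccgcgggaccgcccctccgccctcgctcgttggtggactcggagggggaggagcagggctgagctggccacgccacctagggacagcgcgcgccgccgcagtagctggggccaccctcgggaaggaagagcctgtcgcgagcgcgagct
DCK: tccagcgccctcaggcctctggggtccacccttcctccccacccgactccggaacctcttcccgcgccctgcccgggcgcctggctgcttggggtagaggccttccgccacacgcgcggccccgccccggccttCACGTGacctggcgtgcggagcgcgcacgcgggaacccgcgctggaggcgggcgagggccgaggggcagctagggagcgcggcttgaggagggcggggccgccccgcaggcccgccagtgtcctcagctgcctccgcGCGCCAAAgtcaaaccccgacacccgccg
HPRT1: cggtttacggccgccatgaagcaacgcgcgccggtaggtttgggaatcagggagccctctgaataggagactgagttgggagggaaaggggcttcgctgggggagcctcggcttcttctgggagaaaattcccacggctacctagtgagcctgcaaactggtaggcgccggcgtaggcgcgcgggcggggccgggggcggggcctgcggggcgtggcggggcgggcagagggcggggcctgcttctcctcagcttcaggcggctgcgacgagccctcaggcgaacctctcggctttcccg

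The *PPAT* window overlaps 1 of 3 *PAICS* windows, at chr4:56435502-56435801, by 236 bases, and the E-box lies in the overlap, 182 bases before the *PPAT* start and 40 bases past that *PAICS* start. In *DCK* the E-box lies 116 bases before the start and the E2F motif 21 bases past it. *HPRT1* held none of the motifs searched. CACGTG was present in a window of 7 of the 29 measured genes with a window (*ATIC*, *DCK*, *MTHFD1*, *MTHFD1L*, *NME1*, *PAICS* and *PPAT*), with *PPAT* and *PAICS* counting the same site, against 8.77% of 27305 genes. The E2F motifs TTTCGCGC or TTTGGCGC were in 3 (*DCK*, *DUT* and *GART*), against 1.40%. The C/EBP-ATF motif TGATGCAAT was in 1 (*MTHFD1L*), against 0.293%. All were searched on both strands and no 2 motifs overlapped in the printed windows. Log2 fold changes ran from 0.07 (*MTHFD1L*) to 0.73 (*PPAT*) among genes with the E-box in a window. *HPRT1* at 0.71 and *CAD* at -0.32 were among those with a window and no E-box in it. Bases outside the windows, such as those further past the start, were not searched.

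Most genes around *PPAT* and *PAICS* also had a higher mean in HCT116-MT. These neighbours were looked up after the values of the members were seen. The 10 measured genes nearest to *PPAT* in chromosome order were taken, 5 on each side and *PAICS* among them. Of these 10, 9 had a higher mean in HCT116-MT, against 50.0% of all genes. Their median log2 fold change was 0.41, and 2 were called higher, where 3.46% of all genes were. With no normalization, where the median over all genes was -0.12, 8 of the 10 had a higher mean. The 10 nearest to *PAICS* are mostly the same genes, with *PPAT* and *POLR2B* in place of *PAICS* and *CLOCK*. Of them 4 passed the study thresholds in the same direction, where 3.46% of all genes did. Besides *PPAT* these were *SRP72*, a subunit of the signal recognition particle (log2 fold change 0.76, SE 0.21), *NOA1*, a mitochondrial GTPase (0.99, SE 0.24), and *POLR2B*, a core subunit of RNA polymerase II (0.73, SE 0.19), with adjusted p of 0.410, 0.386 and 0.393 with limma. *DCK*, also on chromosome 4, had 8 of 10 neighbours higher in the mean (median 0.39, against 0.24 with the mean of the kept probes and 0.21 without replicate 1 of HCT116-WT) and 0 called. Over all 409 measured genes of chromosome 4 the mean was higher for 62.8%, and the median log2 fold change was 0.10. For *HPRT1*, on chromosome X, 5 of 10 neighbours were higher in the mean (median 0.16, against 0.03 without replicate 2 of HCT116-WT). Of them 2 were called higher and 1 lower, where 3.46% and 3.85% of all genes were. The same lookup around *PFAS*, *NME1*, *TYMS* and *ADSL* gave 3, 5, 7 and 3 of 10 neighbours higher in the mean. Their medians were -0.18, 0.01, 0.08 and -0.04. Without replicate 1 of HCT116-WT the count around *ADSL* was 6 of 10. Of these neighbours 1 of *ADSL* was called higher, and 1 of *PFAS* and 1 of *NME1* lower. The part of the surrounding genes in the differences of *PPAT*, *PAICS*, *DCK* and *HPRT1* was not tested.

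**Figure D3:**
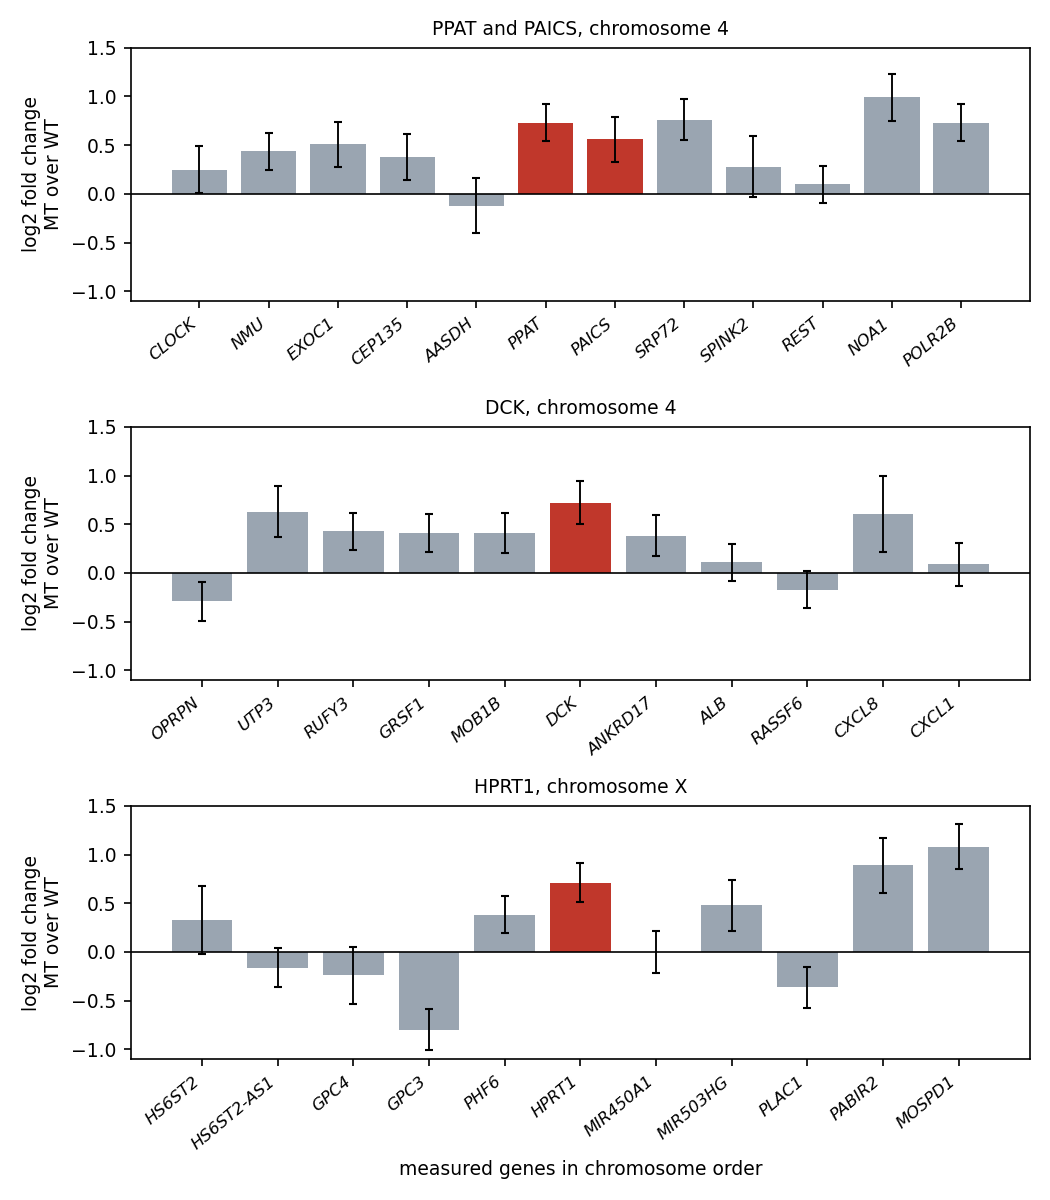
Log2 fold change (bars, with SE), HCT116-MT over HCT116-WT, of *PPAT* and *PAICS*, *DCK* and *HPRT1* (red) and their nearest measured genes (grey), in chromosome order on the horizontal axis. Around *PPAT* and *PAICS* all neighbours except *AASDH* lie above 0 (*REST* lay below 0 with no normalization and *CLOCK* with the mean of the kept probes), whereas around *HPRT1* the bars run from -0.80 for *GPC3* to 1.08 for *MOSPD1*.

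Past IMP the difference was smaller. *IMPDH1* and *IMPDH2*, the isoenzymes that turn IMP toward guanine nucleotides, had log2 fold changes of 0.04 and 0.07 (SE 0.19 and 0.20), and *GUK1*, which phosphorylates GMP, had one of -0.17 (SE 0.23). *GMPS*, the GMP synthetase between them, had the widest difference of the branch, at 2292 and 2651 in HCT116-MT against 1957 and 1888 in HCT116-WT. Its arrays did not overlap (log2 fold change 0.36, SE 0.20, limma adjusted p = 0.645). The median log2 fold change over these 4 genes was 0.05 (0.01 to 0.09 with an array left out), and *ADSS*, the first enzyme of the AMP branch, had no probe. The 95% interval of *IMPDH2*, -0.43 to 0.56, included changes close to 1.5-fold.

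Among the PRPP and purine salvage genes *HPRT1* stood out. It encodes the enzyme that salvages hypoxanthine and guanine with PRPP, and it is often used as a reference gene in quantitative PCR. Its brighter probe read 6345 and 7355 in HCT116-MT against 4093 and 4254 in HCT116-WT. The other probe read 3495 and 3648 in HCT116-MT against 1847 and 2329 in HCT116-WT. The lines did not overlap on either probe, and the log2 fold changes were 0.71 (SE 0.20, 95% interval 0.23 to 1.19, limma unadjusted p = 0.0108 and adjusted p = 0.406) and 0.78, or 1.64-fold for the brighter one. The PRPP synthetases *PRPS1* and *PRPS2* had log2 fold changes of 0.19 and 0.31, each without overlap of the lines on the probe used. The other kept probe of *PRPS2* read 1500 and 1519 in HCT116-MT against 1081 and 1598 in HCT116-WT, with overlap (log2 fold change 0.20). *APRT*, which salvages adenine, had a log2 fold change of 0.11, with overlap.

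In the pyrimidine list 0 of 4 measured genes passed the study thresholds, where 3.46% of all genes were called higher and 3.85% lower. In none of the 4 were the arrays of the lines apart, as they were in 20.7% (higher in HCT116-MT) and 19.1% (lower) of all genes. *CTPS1* (listed as *CTPS*), which makes CTP from UTP, had the largest log2 fold change, 0.67, with the largest SE of the 33 genes, 0.51. It read 1075 and 1932 in HCT116-MT against 1473 and 557 in HCT116-WT, so that the lines overlapped and the low value was replicate 2 of HCT116-WT (95% interval -0.56 to 1.90, limma adjusted p = 0.757). *CAD*, the multifunctional enzyme that opens pyrimidine synthesis, read 737 and 903 in HCT116-MT against 1259 and 827 in HCT116-WT. It had the lowest log2 fold change of the 33, -0.32 (SE 0.27), again with overlap. *UCK2*, which phosphorylates uridine and cytidine, had a log2 fold change of 0.07, and *CMPK1*, which phosphorylates UMP and CMP, had 0.16. *DHODH* and *UMPS*, which form orotate and UMP, were not measured.

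The nucleoside diphosphate kinases make triphosphates from diphosphates. *NME1* had 3 kept probes, which all lay higher in HCT116-MT but by unequal amounts. The brightest, used for the gene, read 19348 and 25449 in HCT116-MT against 19196 and 13771 in HCT116-WT (log2 fold change 0.45, SE 0.26, limma adjusted p = 0.666). The dimmest read 505 and 656 in HCT116-MT against 298 and 281 in HCT116-WT (log2 fold change 0.99). The remaining one read 1255 and 1462 in HCT116-MT against 899 and 717 in HCT116-WT (log2 fold change 0.75). With the mean of the kept probes in place of the brightest, *NME1* passed the study thresholds. *NME2*, the adjacent gene of closely similar sequence, had a log2 fold change of 0.16 (SE 0.24), and cross-hybridization between them was not tested.

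The deoxynucleotide genes were split in direction. Of 7 measured genes 3 had a higher mean and 4 a lower one in HCT116-MT, and the median log2 fold change was -0.01 (0.25 when replicate 1 of HCT116-MT was left out and 0.26 when replicate 1 of HCT116-WT was). *DCK*, which phosphorylates deoxycytidine and also activates cytosine-based drugs, read 2497 and 2272 in HCT116-MT against 1668 and 1251 in HCT116-WT. The lines did not overlap, and the log2 fold change was 0.72 (SE 0.22, 95% interval 0.18 to 1.27, limma unadjusted p = 0.0178 and adjusted p = 0.433), or 1.65-fold. The call rests on 1 of 2 *DCK* probes. The other was not detected on any array (detection p-values against the negative controls 0.461 to 0.722). *TYMS*, the thymidylate synthase that 5-fluorouracil inhibits, read 5753 and 5997 in HCT116-MT against 4629 and 3440 in HCT116-WT. It was 1.47-fold higher (log2 fold change 0.56, SE 0.22, limma adjusted p = 0.528), just under the fold threshold.

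The subunits of ribonucleotide reductase, which makes the deoxynucleotides, differed in their values. *RRM1*, the large subunit, had a log2 fold change of 0.37 (SE 0.19) without overlap of the lines. *RRM2*, the small subunit of cycling cells, had a log2 fold change of -0.20 (SE 0.23) with overlap. *RRM2B*, the p53-inducible small subunit, had a log2 fold change of -0.12 (SE 0.19), with 454 and 475 in HCT116-MT against 523 and 488 in HCT116-WT. By the probe used, it was the 1 gene of the 33 with both HCT116-MT arrays below both HCT116-WT arrays. The other kept probe of *RRM2B* read 267 and 233 in HCT116-MT against 280 and 237 in HCT116-WT, with overlap (log2 fold change -0.05). *TK1*, the thymidine kinase, had a log2 fold change of -0.02 (SE 0.19). *DUT*, which removes dUTP, had a log2 fold change of -0.01 (SE 0.28), and its other kept probe one of 0.01. *DTYMK*, which phosphorylates dTMP, was not measured.

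The 6 folate one-carbon enzymes had a higher mean in HCT116-MT, with a median log2 fold change of 0.21. With no normalization, without replicate 1 of HCT116-MT or without replicate 2 of HCT116-WT, 4 of the 6 did. None of the 6 was called, where 3.46% of all genes were called higher and 3.85% lower. The median was 0.08 with no normalization and ran, with an array left out, between 0.08 (replicate 1 of HCT116-MT) and 0.42 (replicate 1 of HCT116-WT). *GLDC*, the decarboxylase of the glycine cleavage system, read 1322 and 815 in HCT116-MT against 796 and 763 in HCT116-WT. The lines did not overlap, but only replicate 1 of HCT116-MT stood clear of the other 3 arrays (log2 fold change 0.41, SE 0.27, limma adjusted p = 0.717). *SHMT1* and *SHMT2*, the cytosolic and mitochondrial enzymes that split serine into glycine and a folate-bound carbon, had log2 fold changes of 0.06 and 0.24. *MTHFD1*, which interconverts folates in the cytosol, had a log2 fold change of 0.23, and *MTHFD1L*, which releases formate from mitochondria, had 0.07.

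*MTHFD2*, the mitochondrial folate dehydrogenase, followed the replicate number more than the line. It read 7789 and 3737 in HCT116-MT against 6201 and 3674 in HCT116-WT, so that replicate 1 was high and replicate 2 low in both lines. Replicate 1 exceeded replicate 2 by 1.06 on the log2 scale in HCT116-MT and by 0.76 in HCT116-WT, against a log2 fold change of 0.18 (SE 0.42) between the lines. Of all genes 28 (0.236%) had replicate 1 above replicate 2 by at least 0.75 in both lines, and among the nucleotide and one-carbon genes *MTHFD2* was the 1 that did. With the replicate number as a block the log2 fold change of *MTHFD2* was again 0.18, with an SE of 0.23. *PSAT1*, the aminotransferase of serine synthesis, also had this pattern, with differences of 1.17 in HCT116-MT and 1.46 in HCT116-WT.

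**Figure D4:**
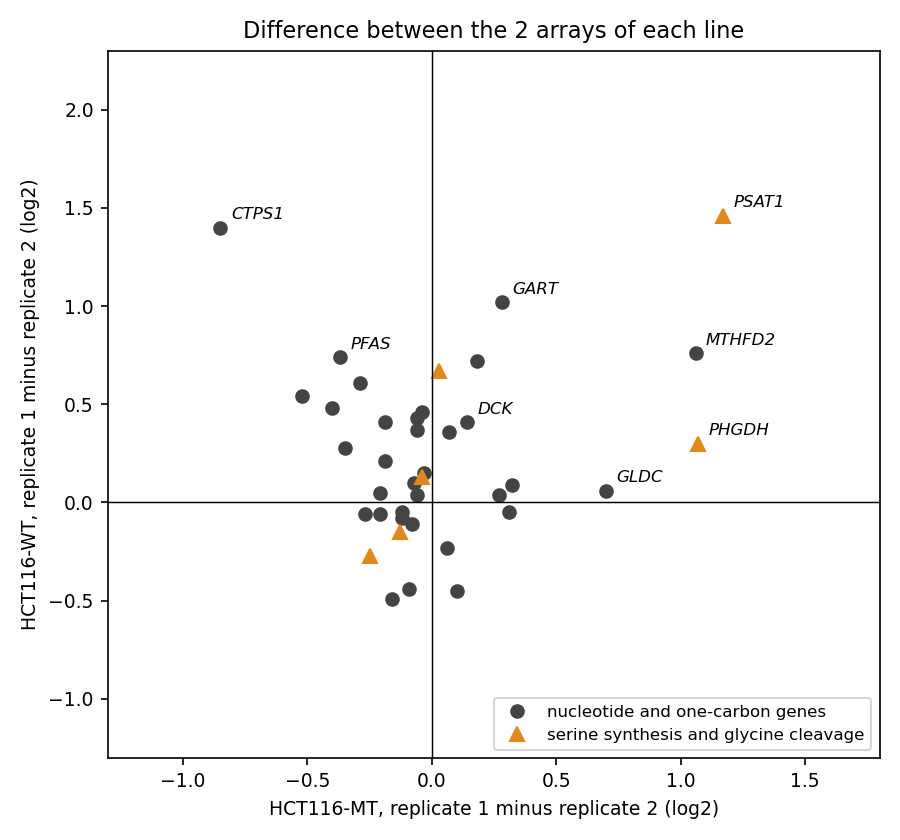
Replicate 1 minus replicate 2 on the log2 scale, in HCT116-MT on the horizontal axis and HCT116-WT on the vertical axis, for the 33 measured nucleotide and one-carbon genes (circles) and 6 genes of serine synthesis and glycine cleavage (triangles). *MTHFD2* and *PSAT1* lie far into the upper right, high on replicate 1 of both lines, and *CTPS1* lies in the upper left, with -0.85 in HCT116-MT and 1.40 in HCT116-WT.

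Wider lists of the same pathways held calls in both directions, where 3.46% of all genes were called higher and 3.85% lower. Of 8 measured folate carriers and cycle enzymes 0 were called and the median log2 fold change was 0.14 (-0.02 with no normalization, and 0.03 to 0.33 with an array left out). *MTHFS*, which returns formyl folate to the active pool, had a log2 fold change of 0.49 (SE 0.38) and *SLC19A1*, the reduced folate carrier, 0.38 (SE 0.26). Of 6 genes of serine synthesis and glycine cleavage 1 was called higher and 1 lower. *GCSH*, the lipoyl carrier protein of glycine cleavage, read 3214 and 3832 in HCT116-MT against 2097 and 2521 in HCT116-WT (log2 fold change 0.61, SE 0.21, limma adjusted p = 0.476). *AMT*, the aminomethyltransferase of the same complex, read 192 and 210 in HCT116-MT against 308 and 341 in HCT116-WT (log2 fold change -0.69, SE 0.19, limma adjusted p = 0.410). These components of 1 complex thus lay in opposite directions, but the HCT116-MT values of *AMT* were near the floor (detection p-values against the negative controls 0.00909 and 0.00519). *PSAT1* had a log2 fold change of 0.48 (SE 0.57) and *PHGDH*, the first enzyme of serine synthesis, -0.34 (SE 0.37).

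Of 20 other salvage and interconversion genes 0 were called higher and 2 lower, with a median log2 fold change of 0. *ADSS1*, the adenylosuccinate synthase best known from muscle, read 566 and 311 in HCT116-MT against 915 and 1575 in HCT116-WT (log2 fold change -1.52, SE 0.38, limma adjusted p = 0.386). *AK3*, the mitochondrial adenylate kinase that uses GTP, read 1910 and 1756 in HCT116-MT against 2680 and 3402 in HCT116-WT (log2 fold change -0.72, SE 0.21, limma adjusted p = 0.420). *AK6*, a nuclear adenylate kinase, and *DCTPP1*, which removes modified dCTP, had log2 fold changes of 0.51 and 0.49 and were not called. Among 14 genes of nucleotide breakdown and pool cleaning the median log2 fold change was -0.05, with 1 call in each direction. *NUDT1*, which hydrolyses oxidized purine triphosphates, read 1812 and 1697 in HCT116-MT against 805 and 963 in HCT116-WT (log2 fold change 0.99, SE 0.20, limma adjusted p = 0.277). *CDA*, the cytidine deaminase, read 390 and 260 in HCT116-MT against 457 and 801 in HCT116-WT (log2 fold change -0.93, SE 0.34, limma adjusted p = 0.493). With the replicate number as a block the unadjusted p of *CDA* was 0.052, and it was not called without replicate 2 of HCT116-MT (-0.63) or of HCT116-WT (-0.52). Of the wider-list calls *ADSS1* and *NUDT1* were past the study thresholds with any 1 array left out, whereas *GCSH*, *AMT*, *AK3* and *CDA* were not. *GCSH* was called only without replicate 2 of HCT116-WT, *AK3* only without replicate 1 of HCT116-WT, and *AMT* was not called without replicate 1 of HCT116-MT (-0.63). *UPP1* and *TYMP*, which cleave uridine and thymidine, had log2 fold changes of -0.52 and -0.37 and were not called.

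Genes of S phase and proliferation, a list also chosen with earlier results of these data known, lay higher in HCT116-MT alongside the nucleotide genes. All 17 that were measured had a higher mean (14 when replicate 2 of HCT116-WT was left out), against 50.0% of all genes, with a median log2 fold change of 0.38 (0.13 without that array), and in 11 both HCT116-MT arrays exceeded both HCT116-WT arrays, against 20.7% of all genes. *FEN1*, the flap endonuclease of lagging-strand synthesis, had a log2 fold change of 0.61 (SE 0.19, limma adjusted p = 0.443) and *CHAF1B*, a chromatin assembly subunit, 0.69 (SE 0.24, adjusted p = 0.476), and these 2 were called higher, where 3.46% of all genes were. Neither was called without replicate 2 of HCT116-MT, nor was *FEN1* without replicate 1 of HCT116-MT or *CHAF1B* without replicate 2 of HCT116-WT. *CCNA2* and *MCM5* had log2 fold changes of 0.55 and 0.54 and were not called. After each gene was centred on its mean over the 4 arrays, the S phase list had medians of 0.145 and 0.299 on the HCT116-MT arrays and 0.026 and -0.313 on the HCT116-WT arrays. The 33 nucleotide and one-carbon genes had 0.125 and 0.129 on the HCT116-MT arrays and -0.044 and -0.205 on the HCT116-WT arrays. Replicate 2 of HCT116-WT was the lowest array in both lists, and the part of proliferation in the nucleotide genes was not tested.

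Set array against array, 24 of the 33 genes were higher in replicate 1 of HCT116-MT than in replicate 1 of HCT116-WT (median difference 0.10 on the log2 scale) and 24 than in replicate 2 of HCT116-WT (0.32). Replicate 2 of HCT116-MT exceeded replicate 1 of HCT116-WT in 23 genes (0.12) and replicate 2 of HCT116-WT in 28 (0.27). The difference within HCT116-WT was of the same order, since replicate 1 exceeded replicate 2 in 23 genes (0.15), whereas within HCT116-MT replicate 1 exceeded replicate 2 in 11 (-0.07). The size of the difference between the lines therefore depended on which HCT116-WT array was used. Without replicate 1 of HCT116-WT the median log2 fold change of the list was 0.33. With replicate 2 of HCT116-WT left out, it was 0.12.

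Of the 3 called genes *PPAT* varied least with an array left out, with log2 fold changes of 0.76 and 0.70 when replicates 1 and 2 of HCT116-MT were left out and of 0.75 and 0.71 when those of HCT116-WT were. The log2 fold change of *HPRT1* lay between 0.60 and 0.82 in the same settings. That of *DCK* lay between 0.51 and 0.93, at the ends when replicates 2 and 1 of HCT116-WT were left out. When replicate 2 of HCT116-MT was left out 1 gene was called, *GLDC*, and *PPAT*, *HPRT1* and *DCK* were not past the study thresholds, at 0.70, 0.60 and 0.79.

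**Figure D5:**
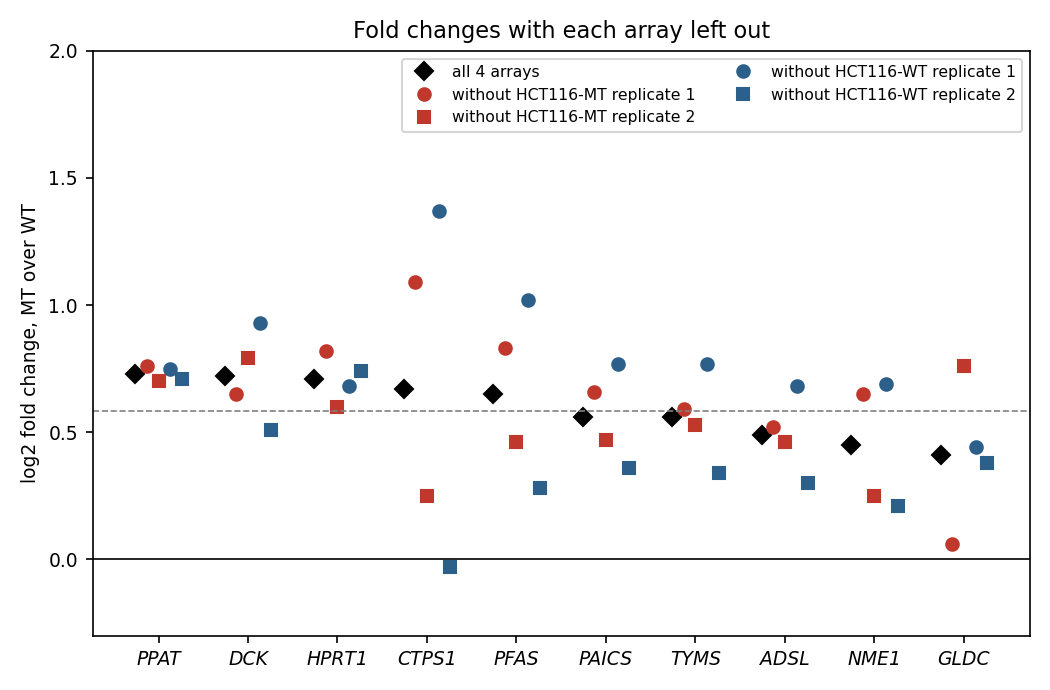
Log2 fold change, HCT116-MT over HCT116-WT, of 10 genes with all 4 arrays (black diamonds) and with each array left out (red for an HCT116-MT array, blue for an HCT116-WT array, circles for replicate 1 and squares for replicate 2). The dashed line marks a fold change of 1.5. The points of *PPAT* span 0.70 to 0.76 and those of *CTPS1* -0.03 to 1.37.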

How the data were processed

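Expression in 2 HCT116-MT and 2 HCT116-WT samples was measured on Illumina HumanHT-12 v4 BeadChips. Array data were extracted by the authors in GenomeStudio. Their deposited table gives, for 47321 probes on each array, an intensity without normalization between arrays and a detection p-value against the negative controls. In the series table of the authors, 26122 of 47319 shared probe IDs (55.2%) carry another intensity. Among genes with several probes of such IDs, log2 levels of probe pairs correlated at 0.434 in the non-normalized table and 0.243 in the series table (0.441 for IDs alike in both). The non-normalized table had been set as the source for this comparison, and was not chosen by these correlations. Of the 33 probes used here 15 were alike in both tables, those of *HPRT1* and *DCK* included but not those of *PPAT* and *PAICS*.

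The log2 intensities were quantile-normalized (as the methods state), and printed as linear normalized intensity. The 20579 probes with detection p under 0.05 on at least 2 arrays were kept. Of them 15512 had 1 gene symbol in the platform annotation, giving 11875 genes, each represented by its brightest kept probe. The lines were compared with limma 3.58.1 in R 4.3.3, with adjustment by Benjamini-Hochberg over all genes (values of further probes of a gene come from the same fit over probes). The methods name an integrated statistical method without describing it, so limma stood in, at the study thresholds of unadjusted p under 0.05 and fold change over 1.5. The fit was tested on arrays simulated with known fold changes. Promoter windows are from RefSeq (GRCh38.p14), and figures were drawn with matplotlib 3.10.9.

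The members and lists were chosen with earlier results of these data known. Full array values were to be given for members past the study thresholds and for the member of each pathway with the largest absolute log2 fold change, those of other genes being added after the values were seen. Of wider lists, called genes and up to 2 others were named. The number of arrays limits the precision. Alternatives were other normalizations, background correction, detection filters, tests, the mean of the kept probes, the replicate block and each array left out.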

Additional observations from a re-analysis of the deposited data

How the results depend on the processing

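With 2 arrays per line, 1 array moved most counts, and a line left with 1 array is assumed to vary like the other line. Genes higher among all tested numbered 411, against 248 with median scaling, 130 with no normalization (where the median of all genes was -0.12), 152 with a t-test per gene and 208 to 765 with an array left out. Genes lower numbered 457, against 175 with the t-test and 224 to 837 with an array left out. Higher genes made up 47.4% of calls, against 32.5% with median scaling, 37.5% with cyclic loess, 17.7% with no normalization and 38.6% without replicate 1 of HCT116-MT. Of the nucleotide and one-carbon genes 3 were higher and 0 lower, against 1 higher (*HPRT1*) with no normalization and 1 to 9 higher and 0 to 1 lower with an array left out. Their median log2 fold change of 0.19 was 0.10 with no normalization and 0.12 to 0.33 with an array left out.

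*HPRT1* was past the study thresholds in all settings except without replicate 2 of HCT116-MT, and *PPAT* in all except that one and no normalization. With the t-test 0 of the 33 measured genes, and 1 of all genes, had an adjusted p under 0.05. *DCK* was not called with median scaling, no normalization, the t-test or without either HCT116-MT array or replicate 2 of HCT116-WT.

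Same-numbered arrays did not deviate together over all genes (r = -0.006). That correlation covers all genes at once, so it cannot decide whether the numbers pair the samples for some of them. With the replicate number as a block 392 genes were higher and 526 lower, the same 3 nucleotide genes were called (0 lower, median 0.19), and 0 genes passed at adjusted p under 0.05.

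Among uncalled genes the log2 fold change changed sign with cyclic loess for *GART* (-0.01), *IMPDH1* (0.00) and *IMPDH2* (0.00), and with median scaling for *UCK2* (0.00). With no normalization it did for *GART* (-0.04), *IMPDH1* (-0.04), *MTHFD1L* (-0.02), *NME2* (-0.01), *SHMT1* (-0.03) and *UCK2* (-0.07). With an array left out in turn the log2 fold change ran on both sides of 0 for *APRT* (-0.05 to 0.27), *CTPS1* (-0.03 to 1.37), *DUT* (-0.28 to 0.26), *GART* (-0.48 to 0.54), *GUK1* (-0.39 to 0.05), *IMPDH1* (-0.02 to 0.10), *IMPDH2* (-0.07 to 0.20), *MTHFD1L* (-0.29 to 0.43), *MTHFD2* (-0.35 to 0.71), *NME2* (-0.08 to 0.41), *TK1* (-0.09 to 0.06) and *UCK2* (-0.04 to 0.18). The causes were not tested.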
